A study of Mus musculus with 15 samples.

Results

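Augmin is a complex of 8 proteins, HAUS1 to HAUS8, that binds the side of an existing microtubule and brings the gamma-tubulin ring complex to it, so that a new microtubule grows as a branch. The genes Haus1 to Haus8 were taken by name, and all 8 were found once among the 53700 gene identifiers in the counts. Haus8 was selected on its measured change between knockout and heterozygote, which had opposite directions in the 2 mouse lines below. Its changes are therefore given as a description without a test, while Haus1 to Haus7, which are members by name alone, were tested.

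The RNA came from mouse oocytes at the germinal vesicle stage, fully grown and still arrested in meiotic prophase, in libraries of 15 oocytes. In the Padi6 line, on an FVB/N background, 3 libraries were from heterozygotes (Padi6 +/-, called het) and 3 from knockouts (Padi6 -/-, called KO). In the Tle6 line, on a C57BL/6J background, 2 biological replicates were from heterozygotes (Tle6 +/-) and 4 from knockouts (Tle6 -/-). By the genotype labels the controls of both lines thus carry a mutant allele too, although the library names inside the titles read WT for the same samples. The cytoplasmic lattices, fibrous stores of protein in the oocyte, need both PADI6, which belongs to the peptidylarginine deiminase family, and TLE6, which belongs to the subcortical maternal complex. The labels do not give the age of the mice, how many were used or which oocytes shared a mother, so each p-value here reflects only how far these samples spread, which may be partly technical.

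Counts in genes ran from 30100177 to 74947533 per library. Padi6 was at 1620 to 1750 CPM (read counts scaled to library size) in Padi6 het and at 18.2 to 25.1 CPM in Padi6 KO, and Tle6 at 425 to 457 CPM in Tle6 het and at 61.1 to 98.8 CPM in Tle6 KO, so both targeted transcripts followed the labels. The 10 oocyte markers summed to between 20300 and 26800 CPM, with none at 0 in any group. The 14 granulosa and cumulus markers summed to 101 to 131 CPM in both lines, with ranges that overlapped between KO and het. Most of that sum was Nr5a2 and Cyp19a1, and the lower markers are given beside Haus8. Amh, which defines growing follicles, was at 0 in Tle6 het and at a mean of 0.108 CPM or less in every group. The 8 theca and stroma markers summed to 4.65 to 5.89 CPM in Tle6 het and 2.37 to 3.34 CPM in Tle6 KO. In the Padi6 line the sum was 1.68 to 4.66 CPM. Of these markers, Cyp17a1 and Col1a2 were at 0 in Tle6 het and at means of 0.0498 CPM or less in every group. The part of theca and stroma cells in the results was not tested. The 8 blood, immune and endothelial markers summed to 20.1 to 34.1 CPM, nearly all of it Pecam1, and Hbb-bs was at 0 in every group. Tle6 het replicate 2 had technical libraries, A and B, that correlated at r = 0.941 across genes, against 0.994 for het replicate 1 and 0.993 for KO replicate 4, so values of the Tle6 line from 1 library of that replicate are given for Haus2, Haus5 and Haus8, which differ most between A and B.

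Microtubules of the spindle arise at centrosomes, around chromosomes and along other microtubules, and augmin serves the last of these routes. In human and frog proteins, HAUS2, HAUS6, HAUS7 and HAUS8 form the part of augmin that holds the microtubule, with a positively charged stretch of HAUS8 among the contacts, and HAUS1, HAUS3, HAUS4 and HAUS5 form the rest of the complex. The carboxy-terminal part of human HAUS6 meets NEDD1, the adaptor of the gamma-tubulin ring complex. Mouse oocytes have no centrioles and build the meiotic spindle from many acentriolar microtubule-organising centres and from microtubules near the chromosomes, and at the germinal vesicle stage this spindle has not yet formed.

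Haus8 lies on chromosome 8, on the minus strand, head to head with Myo9b, which encodes an unconventional myosin. In RefSeq (GRCm38.p6, while the counts were made on mm39) the start used for Haus8 and that used for Myo9b are 124 bases apart, and 2 GC boxes (GGGCGG or, on the other strand, CCGCCC) lie between them. The stretch around the first, at chr8:71272676-71272705 on the strand of Haus8, is shown because both genes start beside it, with the GC box in capitals.

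Haus8 promoter: gaggcgctgagtGGGCGGgcgccaactcgt

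The box begins 103 bases before the Haus8 start. Over the windows from 250 bases before to 50 after the start, which RefSeq gave for 7 of the 8 subunits and not for Haus1, GGGCGG on either strand was present in 5 of 7, against 35.9% of 32544 windows of the same length. CCAAT was present in 4 of 7 (37.4% of windows) and TATAAA in none of 7 (13.6%). Haus8 held 5 GC boxes and neither of the other motifs. These counts describe the letters in the windows and nothing about binding.

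Per kilobase of exon, the 8 subunits differed widely in level. TPM, a measure of transcripts per length that sums to the same total in each replicate, were computed from the counts per kilobase of merged exon. Haus3 was highest in every replicate, at 262 ± 14.3 TPM in Padi6 het, 224 ± 8.31 in Padi6 KO, 309 ± 68.3 in Tle6 het and 232 ± 20.9 in Tle6 KO (SD, n = 3, 3, 2 and 4). Haus4 and Haus7 followed, at 117 ± 13.3 and 97.2 ± 14.4 TPM in Padi6 het. Haus1 and Haus6 stood at 25.7 ± 1.24 and 18.1 ± 2.08 TPM in that group. Haus2 and Haus5 were low there, at 2.86 ± 1.01 and 4.22 ± 0.537 TPM. Together Haus3, Haus4 and Haus7 made up 85.4 to 91.9% of the summed TPM of the 8 subunits in each of the 12 replicates. The sum itself was 538 ± 19.1 TPM in Padi6 het, 525 ± 27 in Padi6 KO, 511 ± 53.7 in Tle6 het and 513 ± 27.4 in Tle6 KO, and KO and het of a line differed by less than these SDs. The low level of Haus5 is uncertain, because 56.5% of its exon bases are shared on the same strand with the annotated transcript Gm21982, also counted as a gene, and reads in shared bases cannot be assigned to either. Overlaps of the other subunits with neighbouring genes covered 4.3% of their exon bases or less.

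**Figure D1:**
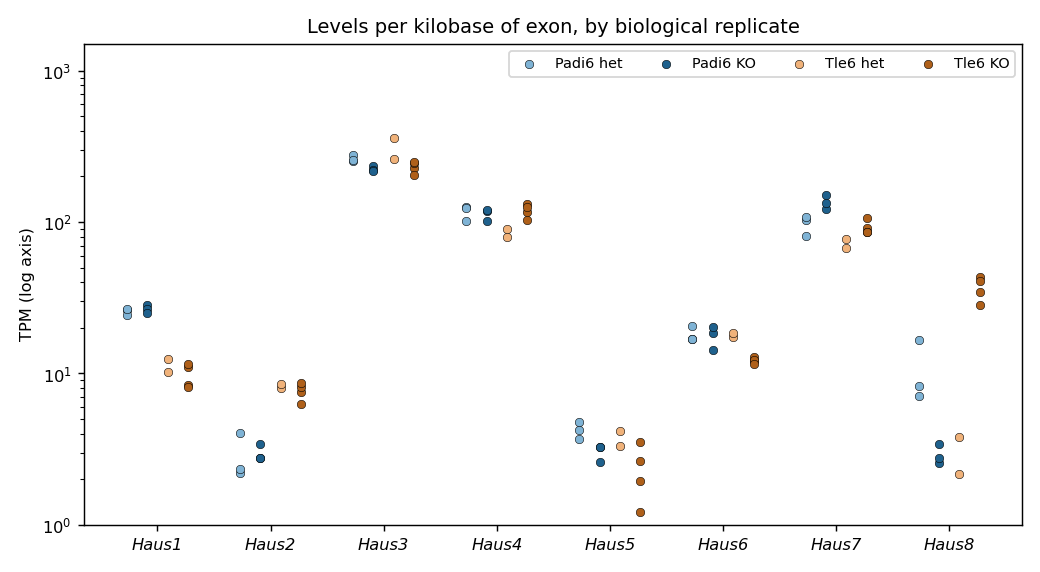
TPM of each augmin subunit (from merged exon length, log axis), with 1 point per biological replicate, coloured by group. Haus3 is highest throughout, and Haus8 moves from among the lowest subunits to 28.5 to 43.7 TPM in the 4 Tle6 KO replicates.

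Over the 12 replicates of all groups, the SD of log2 CPM was 1.67 for Haus8 and 0.17 (Haus4) to 0.85 (Haus2) for the other 7. This SD includes the differences between groups for which Haus8 was picked, so its rank is no separate result. Padi6 het replicates 1, 2 and 3 had 10.8, 24.5 and 13.0 CPM. The KO replicates of that line had 5.36, 4.00 and 4.18 CPM. KO and het values did not overlap for 23.3% of all genes tested in this line. For Haus8 all 3 KO values lay under the lowest het value, and het replicate 2 stood apart at about the sum of the other 2 het values. The fitted log2 fold change was -1.82 ± 0.29 (SE), a 3.54-fold lower level in KO, and it was -1.37 without het replicate 2. These values rest on 202 to 1279 reads per replicate.

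In the Tle6 line the order was the opposite. Haus8 was at 3.80 and 6.79 CPM in Tle6 het replicates 1 and 2. Tle6 KO replicates 1 to 4 had 46.4, 68.5, 64.6 and 57.9 CPM. KO and het values did not overlap for 29.3% of all genes tested in this line. For Haus8 the lowest KO replicate was far above the higher het replicate. Its log2 fold change was 3.52 ± 0.32 (SE), an 11.5-fold higher level in KO. In the technical libraries, scaled over all libraries, Haus8 was at 3.61 and 3.64 CPM for het replicate 1, at 4.91 and 8.21 CPM for A and B of het replicate 2 and at 57.9 and 53.4 CPM for KO replicate 4. The log2 fold change was 3.78 with library A alone for het replicate 2 and 3.31 with library B alone. The smallest and largest values on leaving out a replicate were 3.14 without het replicate 1 and 3.97 without het replicate 2.

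Across the groups, Haus8 was thus ordered Tle6 KO (59.4 ± 9.68 CPM), Padi6 het (16.1 ± 7.34), Tle6 het (5.30 ± 2.11) and Padi6 KO (4.51 ± 0.737; SD, n = 4, 3, 2 and 3). Tle6 het and Padi6 KO overlapped in their replicate values, whereas each other pair of neighbours in this order did not. In bulk oocyte RNA, fewer oocytes with the transcript and less transcript per oocyte cannot be told apart. The effects of the knockouts differed between the lines by 5.29 ± 0.47 (SE) on the log2 scale. That difference is the reason Haus8 was picked, and it is given with no test.

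Markers of granulosa and cumulus cells, the somatic cells around the oocyte, moved with Haus8 in part. Of the 12 tested in the Padi6 line 10 had a negative log2 fold change (median -0.46), as had 9259 of all 18228 genes (median -0.01). Of the 13 in the Tle6 line 9 had a positive one (median 0.55), as had 10973 of all 20276 genes (median 0.06). Amhr2, Fshr, Inha and Fst had log2 fold changes of -2.77, -2.13, -2.75 and -1.68 in Padi6 KO and 2.98, 1.35, 1.92 and 1.15 in Tle6 KO, none past edgeR's test in either line. These 4 were low, and they were named after their values were seen. Inha was at 0.208 to 2.42 CPM in Padi6 het and 0.121 to 0.361 in Padi6 KO. In the Tle6 line Inha was at 0.142 and 0.279 CPM in het and 0.521 to 0.875 in KO. Inhba (-0.42 in Padi6 KO and 1.21 in Tle6 KO) and Hsd17b1 (-0.51 and 0.55) had the same signs as the 4. Cyp11a1 was at -1.81 and 0.11, while Ptgs2 (-0.22 and -1.53) and Kitl (-0.03 and -0.17) were negative in both lines. None of these passed edgeR's test in either line. In the difference between lines Inha passed (4.63 ± 1.05, edgeR's adjusted p = 0.0274). This call was lost without Padi6 het replicate 2 or 3, Padi6 KO replicate 1 or 3 or Tle6 het replicate 2 (4.50, 4.03, 4.33, 4.45 and 4.21). It was also lost with limma-voom (4.3) and with a replicate block (4.15). With library A alone for Tle6 het replicate 2 (4.19) or throughout (4.05) it was lost too.

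Has2, a cumulus gene for hyaluronan synthesis, went the other way. It was higher in Padi6 KO, at 10.8 to 11.1 CPM against 1.33 to 3.62 in het (2.19 ± 0.31, edgeR's adjusted p = 0.0109), and at -0.62 ± 0.46 in Tle6 KO. Its difference between lines was -2.86 ± 0.58 (edgeR's adjusted p = 0.0159). This call was lost without Tle6 het replicate 2 (-2.06) and with library A alone for that replicate (-1.83) or throughout (-1.71). It was also lost with a replicate block (-3.14). The abundant markers Nr5a2 and Cyp19a1 had values between -0.15 and 0.14 in both lines. The part of these cells in the Haus8 values was not tested.

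**Figure D2:**
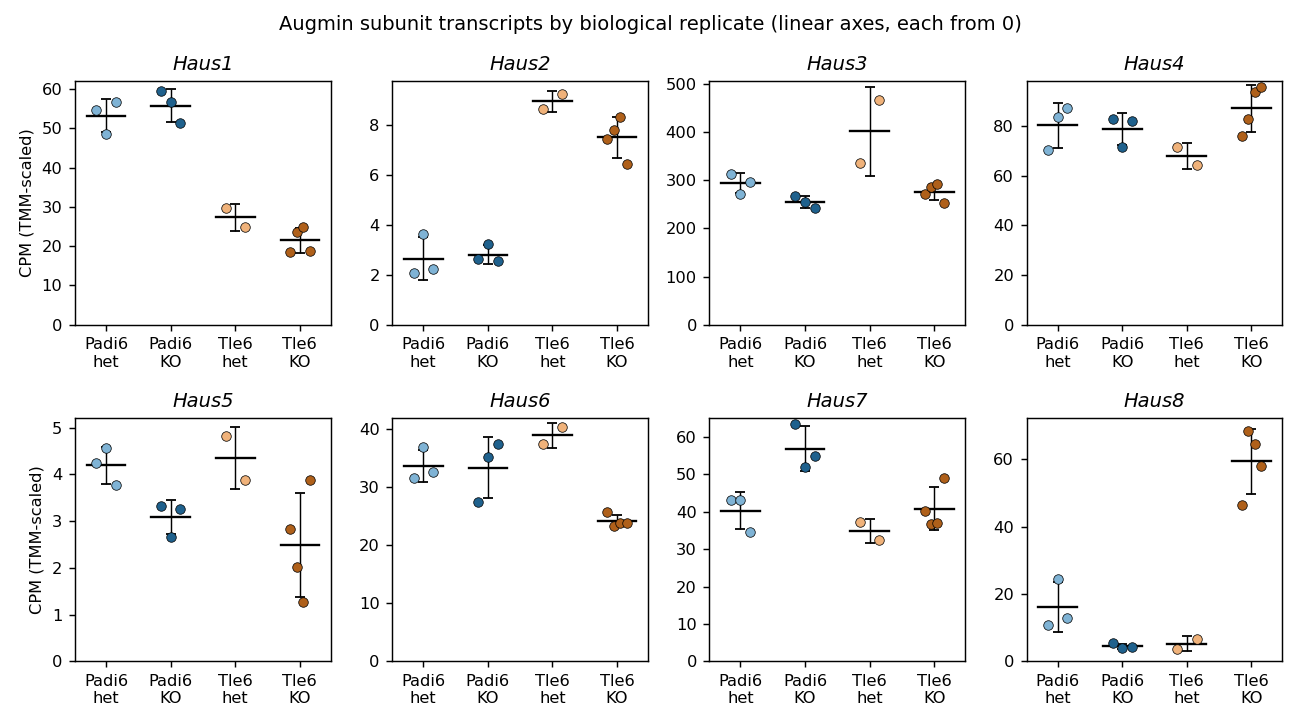
CPM of each subunit by group (TMM-scaled over all 12 replicates, linear axes from 0), where points are biological replicates, the long bar is the mean and the error bar 1 SD. Haus8 is at 46.4 to 68.5 CPM in Tle6 KO and at 24.5 CPM or less elsewhere, while Haus1 and Haus2 differ more between the lines than between the genotypes of a line.

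Against the rest of the complex, Haus8 went from a minor to an intermediate subunit transcript. Its log2 ratio to the median of the other 7, per length, was -1.90, -0.55 and -1.68 in Padi6 het and -3.03, -3.38 and -3.18 in Padi6 KO. It was -3.01 and -2.29 in Tle6 het and 1.14, 1.85, 1.72 and 1.57 in Tle6 KO. Haus8 was therefore above the median subunit in the Tle6 KO replicates and under it in all others. Its rank among the 8 subunits was 4 in each Tle6 KO replicate, 6 in each Padi6 het replicate, and 6 to 8 in Padi6 KO and Tle6 het. Its share of the summed augmin TPM was 7.14 ± 0.994% in Tle6 KO, 1.97 ± 0.898% in Padi6 het, 0.576 ± 0.168% in Tle6 het and 0.553 ± 0.0601% in Padi6 KO (SD, n = 4, 3, 2 and 3).

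No subunit from Haus1 to Haus7 passed the test in Padi6 KO against Padi6 het oocytes (edgeR's quasi-likelihood test, Benjamini-Hochberg adjusted p under 0.05 over 18228 genes, of which 2.41% passed, 1.69% higher and 0.724% lower). The same count was 0 with limma-voom and 1 with DESeq2, where 8.12% of all genes with an adjusted p passed. At an unadjusted p under 0.05 with edgeR, 1 of the 7 passed, Haus7, as did 18.6% of all genes. It was at 43.1, 43.2 and 34.6 CPM in het and 63.5, 52.0 and 54.9 CPM in KO, so that all KO values were above all het values. Its log2 fold change was 0.51 ± 0.13 (SE, 95% interval 0.22 to 0.80, adjusted p = 0.0708), and it passed with DESeq2 (adjusted p = 8.30e-03) and with no filter on low counts (adjusted p = 5.61e-03). Human HAUS7 belongs with HAUS8 in the part of the complex that holds the microtubule.

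The remaining 6 subunits of the Padi6 line had log2 fold changes between -0.43 and 0.10. Haus5, a subunit of the other arm, was at 4.24, 4.57 and 3.78 CPM in het and 3.32, 2.67 and 3.27 CPM in KO, lower in all KO replicates but not past the test (log2 fold change -0.43 ± 0.20, 95% interval -0.87 to 0.02, adjusted p = 0.291). Haus3, the most abundant subunit transcript, was at 313, 272 and 295 CPM in het and 266, 255 and 242 CPM in KO, again without overlap. Its log2 fold change was -0.19 ± 0.09 (95% interval -0.39 to 0.01, adjusted p = 0.30). For Haus1, Haus4 and Haus6 the values of the groups overlapped and the 95% intervals were -0.14 to 0.31, -0.27 to 0.25 and -0.32 to 0.34, so changes beyond 0.34 on the log2 scale lay outside each of these intervals. Haus2 was measured less precisely (0.10 ± 0.27, interval -0.49 to 0.69). In all, 3 of these 7 subunits had groups without overlap, while 23.3% of all genes tested did. The median log2 fold change of the 7 was 0.01, beside -0.01 for all genes tested.

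In Tle6 KO against Tle6 het oocytes, none of Haus1 to Haus7 passed the same test over 20276 genes, of which 1.62% passed, 0.587% higher and 1.04% lower. The count was 0 with limma-voom and 1 with DESeq2, where 8.9% of all genes with an adjusted p passed. With edgeR, 2 had an unadjusted p under 0.05, as did 19% of all genes. Haus6, whose human counterpart meets NEDD1, was at 37.5 and 40.5 CPM in het and 25.8, 23.3, 23.9 and 23.8 CPM in KO. The 4 KO replicates were close together and under both het replicates. The log2 fold change was -0.65 ± 0.18 (SE, 95% interval -1.06 to -0.24, adjusted p = 0.11), and the adjusted p was 0.0132 with DESeq2 and 0.0177 with the spread shared by both lines. Haus3 was at 336 and 466 CPM in het and 271, 285, 292 and 253 CPM in KO, with a log2 fold change of -0.51 ± 0.19 (adjusted p = 0.199, and 0.0316 with the shared spread). The het replicates differed from each other by more than the lower of them did from the KO replicates.

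Haus4, of the same arm as Haus3, had the opposite sign, at 71.5 and 64.3 CPM in het and 75.8, 82.9, 93.7 and 95.6 CPM in KO (log2 fold change 0.40 ± 0.18, adjusted p = 0.274). Haus5 was at 4.83 and 3.89 CPM in het and 2.83, 2.01, 1.27 and 3.87 CPM in KO, the widest spread of the 7 within a group relative to its level, with the highest KO value just under the lower het value (-0.76 ± 0.42, adjusted p = 0.363). The lower het replicate combined 2.42 CPM in library A with 4.98 in library B, and the log2 fold change was -0.53 with A alone and -0.96 with B alone. Haus2 was at 8.66 and 9.26 CPM in het and 6.42 to 8.34 CPM in KO (-0.22 ± 0.23, adjusted p = 0.661). Its sign depended on library B of het replicate 2, as the value was 0.04 with library A alone. Haus1 and Haus7 overlapped between the groups, at -0.31 ± 0.22 and 0.27 ± 0.20. Without overlap were 5 of the 7 subunits, 1 higher and 4 lower, where 29.3% of all genes tested had no overlap. With library A alone for het replicate 2, Haus2 and Haus5 overlapped and Haus1 no longer did, which left 4 of 7 (22.4% of all genes). The median log2 fold change of the 7 was -0.31 beside 0.06 for all genes tested. In the fits with all replicates and libraries, no subunit other than Haus8 had a log2 fold change beyond 0.76 in size in either line. On leaving out a replicate, Haus5 ran from -1.05 to -0.54 in Tle6 KO.

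**Figure D3:**
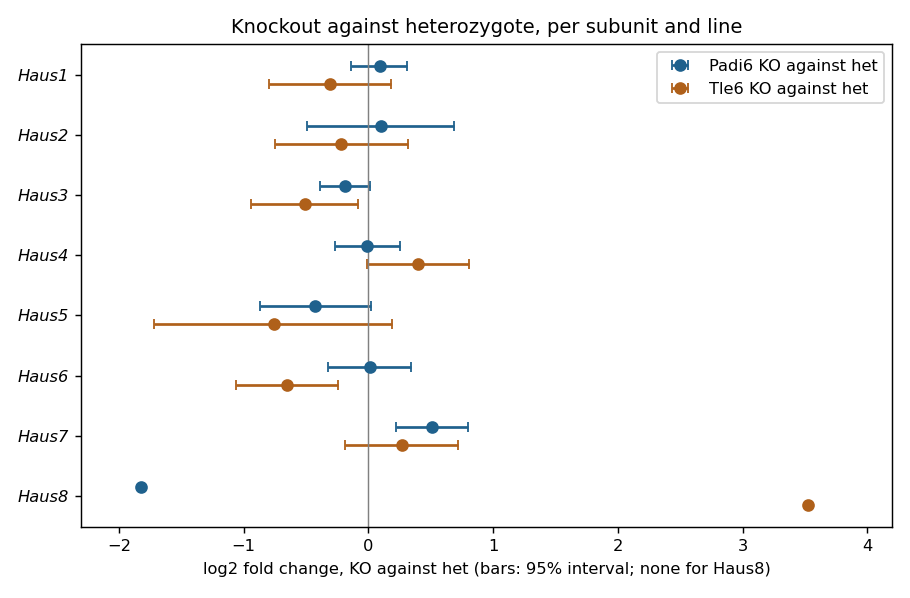
Log2 fold change of KO against het for each subunit by line, with 95% intervals for Haus1 to Haus7 and points alone for Haus8, which was chosen for its change. Haus8 is at -1.82 and 3.52, and the other subunits lie between -0.76 and 0.51.

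Whether the knockouts affected a subunit differently in the lines was tested with an interaction contrast over all 12 replicates. None of Haus1 to Haus7 passed (edgeR's quasi-likelihood test over 21392 genes, of which 4.32% passed, 1.31% higher and 3.01% lower). The count was 0 with limma-voom and 1 with DESeq2, where 9.35% of all genes with an adjusted p passed. With edgeR, 1 had an unadjusted p under 0.05, as did 20.7% of all genes. This was Haus6, whose effect in the Tle6 line was lower by 0.70 ± 0.22 on the log2 scale than in the Padi6 line (difference -0.70, 95% interval -1.19 to -0.22, adjusted p = 0.0939, and 0.0425 with DESeq2). For Haus7, the nearest to passing in the Padi6 line, the difference was -0.29 ± 0.23 (95% interval -0.78 to 0.19). For Haus3 it was -0.36 ± 0.20 and for Haus4 0.36 ± 0.20.

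Between the heterozygotes of the lines, 3 of the 7 subunits differed, 2 higher and 1 lower in Tle6 het than in Padi6 het, in a comparison where 28.5% of all genes passed, 15.9% higher and 12.7% lower. Replicate values did not overlap for 4 of the 7 (Haus2, Haus3 and Haus6 higher, Haus1 lower), as for 54% of all genes. A share of 3 in 7 is not set apart from that background by any test here. Line, strain background and sequencing cannot be told apart in it. Haus2, of the microtubule-binding arm, was at 2.06, 3.62 and 2.25 CPM in Padi6 het and 8.66 and 9.26 CPM in Tle6 het (log2 fold change 1.78 ± 0.26, edgeR's adjusted p = 2.80e-04). Haus1 was at 54.7, 48.5 and 56.6 CPM in Padi6 het and 29.8 and 24.9 CPM in Tle6 het (-0.94 ± 0.18, adjusted p = 1.67e-03). For both genes the KO replicates of a line lay nearer to that line's het replicates than to the other line, with Haus2 at 2.54 to 3.25 CPM and Haus1 at 51.3 to 59.5 CPM in Padi6 KO, and at 6.42 to 8.34 and 18.6 to 25.0 CPM in Tle6 KO.

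Haus3 was higher in Tle6 het by 0.47 ± 0.15 (edgeR's adjusted p = 0.0347), but this call was lost without Padi6 het replicate 2 or 3, Padi6 KO replicate 2 or Tle6 het replicate 2, without which the value was 0.21. It was also lost with total count scaling (0.16, adjusted p = 0.446), with no filter (0.45, adjusted p = 0.109) and with library A alone for Tle6 het replicate 2 (0.46, adjusted p = 0.0633). Haus4, Haus5, Haus6 and Haus7 did not pass (-0.22 ± 0.15, 0.08 ± 0.37, 0.24 ± 0.17 and -0.19 ± 0.17), and with total counts Haus5 and Haus6 turned to -0.23 and -0.08 while Haus4 passed at -0.52 (adjusted p = 0.0247). Haus8 was 1.57 lower on the log2 scale in Tle6 het (log2 fold change -1.57 ± 0.34, and -2.07 without Tle6 het replicate 2), a description only.

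Of 5 protein-coding neighbours of Haus8, none passed the test in either knockout, and none with limma-voom. At an unadjusted p under 0.05 with edgeR, 1 passed in Padi6 KO and 2 in Tle6 KO, where 18.6% and 19% of all genes did. With DESeq2 the counts were 0 and 1, where 8.12% and 8.9% of all genes with an adjusted p passed. Myo9b, which starts beside Haus8 on the other strand, was at 105 to 117 CPM in Padi6 het and 114 to 122 CPM in Padi6 KO (log2 fold change 0.08 ± 0.10, 95% interval -0.14 to 0.29, adjusted p = 0.735). In the Tle6 line it was at 55.8 and 63.7 CPM in het and 60.7 to 90.7 CPM in KO (0.34 ± 0.22, adjusted p = 0.429). Haus8 and Myo9b share 116 bases of exon on opposite strands, 2.2% of the exon bases of Haus8, and the strand setting of the counting is not given, so that a small part of either count is uncertain. On the other side, Map1s, which encodes a microtubule-associated protein, was at 6.41 and 6.48 CPM in Tle6 het and 9.02 to 18.8 CPM in Tle6 KO (1.20 ± 0.32, adjusted p = 0.0974). Use1, an endoplasmic reticulum SNARE gene, had 0.86 ± 0.31 in the Tle6 line and -0.29 ± 0.11 in the Padi6 line, neither past the test. Slc5a5 and Ocel1 had adjusted p of 0.398 or more in both lines.

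**Figure D4:**
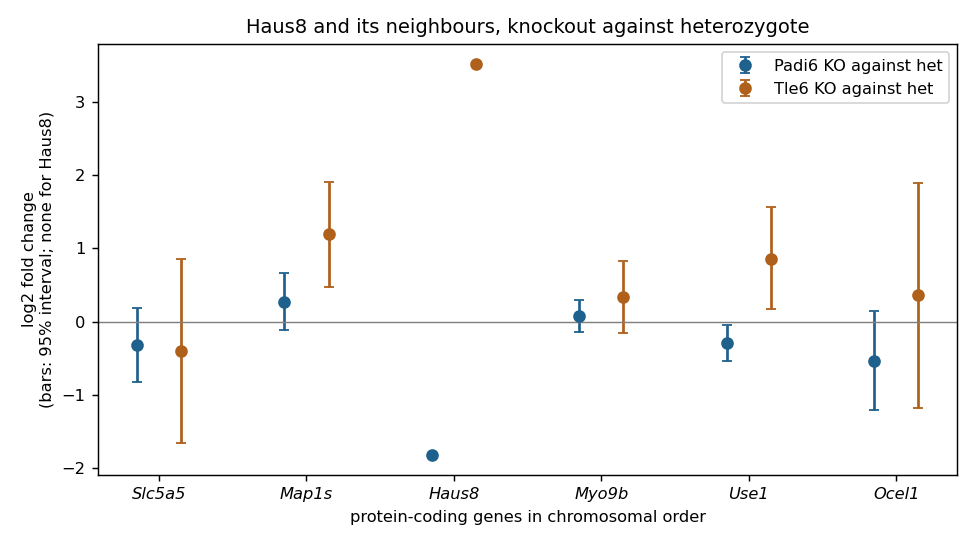
Log2 fold change of KO against het for Haus8 and 5 protein-coding neighbours, in chromosomal order, with 95% intervals for all but Haus8. Haus8 is at -1.82 and 3.52, and its neighbours run from -0.53 to 0.27 in the Padi6 line and from -0.40 to 1.20 in the Tle6 line.

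Between the heterozygotes, 3 of these 5 neighbours were lower in the Tle6 line with edgeR, where 12.7% of all genes were. At an unadjusted p under 0.05 with edgeR all 5 passed (40% of all genes). With DESeq2 all 5 passed too (33.3% of all genes with an adjusted p). The count was also 5 with limma-voom, for which no share of all genes is given here. Log2 fold changes were -2.47 ± 0.30 for Map1s (edgeR's adjusted p = 5.81e-05), -0.90 ± 0.18 for Myo9b (adjusted p = 2.29e-03) and -2.10 ± 0.60 for Ocel1 (adjusted p = 0.0195). Slc5a5 and Use1 were at -1.18 ± 0.47 and -0.72 ± 0.26 (edgeR's adjusted p = 0.0769 and 0.0527). The call for Ocel1 was lost without Padi6 het replicate 1 (-1.84, adjusted p = 0.0596) or Tle6 het replicate 1 (-1.65, adjusted p = 0.135), and with library A alone for Tle6 het replicate 2, where the value was -1.36.

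Few partners of augmin in microtubule nucleation passed the test in the knockouts. Of 10 genes of the gamma-tubulin ring complex, none passed in Padi6 KO (median log2 fold change -0.04, all genes -0.01) and none in Tle6 KO (median -0.25, all genes 0.06). The counts at an unadjusted p under 0.05 were 0 and 5 (all genes 18.6% and 19%), with DESeq2 0 and 1 (all genes 8.12% and 8.9%), and with limma-voom 0 in both. Nedd1, the adaptor that augmin recruits, was at 135 to 138 CPM in Padi6 het and 116 to 128 in Padi6 KO (-0.16 ± 0.10), and at 161 and 230 CPM in Tle6 het and 119 to 152 in Tle6 KO (-0.47 ± 0.20, edgeR's adjusted p = 0.254). Tubg1, a gamma-tubulin gene, was at 18.7 to 29.7 CPM in Padi6 het and 17.5 to 26.3 in Padi6 KO (-0.11 ± 0.18). In the Tle6 line it was at 9.83 and 16.0 CPM in het and 6.20 to 8.64 in KO (-0.72 ± 0.26, adjusted p = 0.191). Tubg2, the other gamma-tubulin gene, had the higher level per length in every group (143 against 36.9 TPM in Padi6 het) and the smallest p of the 10 in the Tle6 line, with the opposite sign. It was at 61.5 and 71.4 CPM in Tle6 het and 106 to 223 CPM in Tle6 KO (1.34 ± 0.31, edgeR's adjusted p = 0.0709), and at 66.7 to 78.2 and 68.2 to 93.9 CPM in Padi6 het and KO (0.17 ± 0.12). Tubg1 and Tubg2 are close copies, so how reads were divided between them is uncertain.

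Of 12 scaffold genes of pericentriolar material and microtubule-organising centres, 2 fell in Padi6 KO, where 0.724% of all genes did, and 10 did not pass. The median was -0.26, beside -0.01 for all genes tested. Of the 12, 10 had a negative log2 fold change and 2 a positive one, beside 9259 and 8969 of all 18228 genes. At an unadjusted p under 0.05, 7 passed with edgeR, all of them negative (18.6% of all genes passed). With DESeq2 3 passed (8.12% of all genes with an adjusted p). With limma-voom 1 passed, for which no share of all genes is given here. Cep250, which encodes a centrosomal linker protein, was at 8.57 ± 1.17 CPM in het and 3.95 ± 0.534 CPM in KO (SD, n = 3 and 3), a log2 fold change of -1.10 ± 0.19 (edgeR's adjusted p = 0.0222). Akap9, a scaffold for gamma-tubulin at the Golgi and centrosome, fell from 52.0 ± 3.17 to 35.3 ± 5.09 CPM (-0.54 ± 0.12, adjusted p = 0.0446). Neither call was stable. That of Cep250 was lost without het replicate 2 or 3 or KO replicate 2 or 3, at -0.97, -1.14, -0.99 and -1.15. That of Akap9 was lost without het replicate 1, 2 or 3 or KO replicate 2 or 3, at -0.50, -0.58, -0.54, -0.54 and -0.46. Both were lost with a spread shared by the lines, and that of Akap9 also with upper quartile or total count scaling and with limma-voom. None of the 12 passed in Tle6 KO (median -0.08), by limma-voom or DESeq2 either, and 2 had an unadjusted p under 0.05 (all genes 19%).

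Of 20 genes of the RAN pathway and spindle assembly, none passed in either knockout (medians -0.06 and -0.15). The counts at an unadjusted p under 0.05 were 1 in Padi6 KO and 5 in Tle6 KO (all genes 18.6% and 19%), with DESeq2 1 and 0 (8.12% and 8.9%), and with limma-voom 0 in both. Tpx2, whose protein promotes branching nucleation when RAN is active, was at 258 ± 19.6 and 247 ± 20.9 CPM in Padi6 het and KO (-0.05 ± 0.10, 95% interval -0.26 to 0.17). It was at 194 ± 13.4 (n = 2) and 168 ± 8.77 CPM (n = 4) in Tle6 het and KO (-0.17 ± 0.16). In the difference between the lines none of these genes passed with edgeR or limma-voom. With DESeq2, 1 of 10, 1 of 12 and 2 of 20 passed (9.35% of all genes with an adjusted p), and 3, 3 and 5 had an unadjusted p under 0.05 with edgeR (20.7% of all genes).

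Between the heterozygotes, 2 of the 10, 1 of the 12 and 3 of the 20 passed, where 28.5% of all genes did. Prc1, which bundles antiparallel microtubules, was at 73.4 to 103 CPM in Padi6 het and 399 and 454 CPM in Tle6 het (2.25 ± 0.31, edgeR's adjusted p = 1.86e-04). Plk4 was higher in Tle6 het by 1.00 and Nedd1 by 0.54, while Plk1 had a log2 fold change of -1.24, Tubg1 of -0.89 and Tpx2 of -0.39. The call for Nedd1 was lost without Padi6 het replicate 1, 2 or 3 (0.56, 0.54 and 0.53) or Tle6 het replicate 2 (0.25), and that for Tubg1 without Padi6 het replicate 3 (-0.73) or Tle6 het replicate 2 (-0.59). The call for Tpx2 was lost on leaving out 7 of the 12 replicates in turn, with values from -0.45 to -0.33 over all 12. Nedd1 was also lost with total count scaling (0.23, adjusted p = 0.308), and Nedd1 and Tpx2 with no filter (adjusted p = 0.0606 and 0.179). With library A alone for Tle6 het replicate 2, none of Nedd1, Tubg1 and Tpx2 passed, at 0.39 for Nedd1, -0.44 for Tubg1 and -0.28 for Tpx2.

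By root mean square distance between log2 CPM, centred on each gene's mean over the 12 replicates, the protein-coding genes most like Haus8 among 14346 were Rad51d (0.52), Myo10 (0.68), Hsd17b13 (0.76), Adgrf5 (0.80) and Ldb2 (0.80). These genes were picked for that likeness, so group patterns they share with Haus8 follow from the selection. The nearest other subunit was Haus2, at 1.45, and the farthest Haus1, at 2.08. Rad51d, a recombination gene, was at 14.3 to 20.6 CPM in Padi6 het and 7.87 to 8.36 CPM in Padi6 KO. It was at 7.86 and 10.7 CPM in Tle6 het and at 47.8 to 54.8 CPM in Tle6 KO, the same order of groups as Haus8. Myo10, an unconventional myosin gene, was at 26.3 to 75.4, 20.5 to 28, 34.3 to 57.5 and 221 to 436 CPM in the same groups. Hsd17b13, a lipid droplet enzyme gene, was at 1.36 to 2.32 CPM in the other 3 groups and at 8.90 to 11.5 CPM in Tle6 KO, so it shared the high Tle6 KO values but its Padi6 groups overlapped. Adgrf5 reached no more than 1.77 CPM in any replicate, and Ldb2 was at 7.09 to 9.79 CPM in Tle6 KO and 3.89 CPM or less elsewhere.

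**Figure D5:**
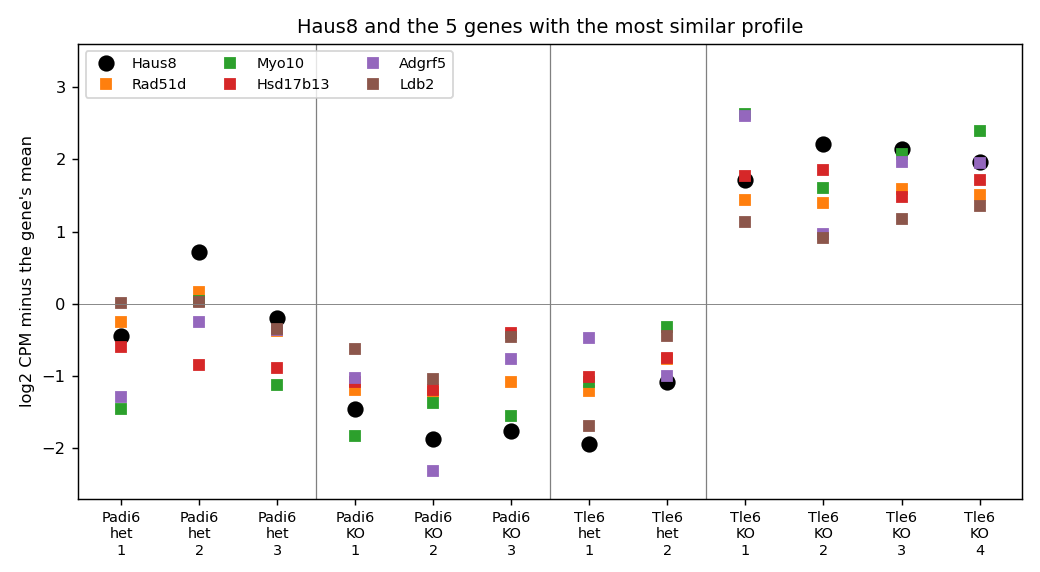
Log2 CPM minus the gene's own mean over 12 biological replicates, for Haus8 (black) and the 5 genes with the smallest distance to it, with vertical lines between the groups. All 6 genes are highest in the 4 Tle6 KO replicates, which follows from picking the 5 for their likeness to Haus8. Haus8 in Padi6 het replicate 2, at 0.72, stands above the other Padi6 replicates.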

How the data were processed

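The authors deposited whole-number read counts per gene for 15 libraries, not normalised. The submitters' processing notes name bcl2fastq 2.20.0.422, cutadapt 2.8, STAR 2.7.8a, HTSeq 2.0.2 and mm39. Neither the annotation release nor the strand setting is given in the sources used here. In each deposited table, 5.39 to 7.29% of reads lay outside genes, 3.85 to 4.2% were ambiguous and 12.09 to 14.51% were not uniquely aligned, and these and 92 spike-ins stayed out of library sizes and tests.

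GENCODE M21 (GRCm38) gave names, gene order and exon lengths for 52093 of 53700 identifiers. The counts of technical libraries A and B were added, which left 12 biological replicates. Each line was fitted by itself in edgeR 4.0.16 under R 4.3.3, after filterByExpr and TMM scaling, with robust glmQLFit and two-sided glmQLFTest. The difference between lines and the het comparison used all replicates. The SE is the log2 fold change over the square root of F. CPM were TMM-scaled over all 12 replicates, so ratios of printed CPM can differ slightly from fitted fold changes. The code was tested on simulated data.

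The members, lists and tests were chosen with earlier results of these data known. Named genes were the 8 members, list genes past the threshold (at most 6 per list) with Nedd1, Tubg1 and Tpx2, the 3 protein-coding genes on each side of Haus8 (1 of them is not reported here), and the 5 most like it. Tubg2 and the granulosa markers named were added after their values were seen. Alternatives were other scalings and filters, DESeq2 1.42.0, limma-voom 3.58.1, non-robust fits, a shared spread, a replicate block, single technical libraries, other lengths and each replicate left out.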

Additional observations from a re-analysis of the deposited data

Results flagged for a closer look

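Haus8 moved in opposite directions in the 2 knockouts in every replicate: all 3 Padi6 KO replicates were lower than all Padi6 het replicates, and all 4 Tle6 KO replicates higher than both Tle6 het replicates. The difference between the lines' effects was 5.29 on the log2 scale. It was not tested, since Haus8 was picked for it.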

How the results depend on the processing

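Counts of genes past the threshold depended on the settings. In Padi6 KO against het the 440 genes became 1625 with no filter, 1336 with DESeq2, 60 with the spread shared by both lines and 61 to 258 on leaving out a replicate. In Tle6 KO against het the 329 became 1447, 1732, 2061 and 119 to 292, and 120 or 118 with library A alone for het replicate 2 or for all replicates with technical libraries. For the difference between lines the 924 became 2078 with no filter, 1997 with DESeq2, 382 and 369 with those libraries and 406 to 1465 on leaving out a replicate. For the hets the 6107 became 3724 and 3534 with those libraries and 3953 to 6283.

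Of Haus1 to Haus7, 1 passed in Padi6 KO with no filter, with DESeq2 and with a replicate block. In Tle6 KO 1 passed with DESeq2 and 2 with a shared spread, and in the difference 1 with DESeq2. In the 3 comparisons with KO, the number passing was 0 whichever replicate was left out. In the hets it was 2 to 3. Signs near 0 turned. In Padi6 KO, Haus4 was 0.01 with upper quartile scaling and 0.02 at a mean of at least 1 CPM, and Haus6 was -0.02 with total counts, -0.01 with limma-voom and 0 with the replicate block. On leaving out a replicate, Haus2 ran from -0.05 to 0.41, Haus4 from -0.09 to 0.07 and Haus6 from -0.10 to 0.15. In Tle6 KO, Haus2 was 0.04 and 0.07 with library A alone for het replicate 2 or throughout. In the hets, Haus5 was -0.23 with total counts and -0.19 and -0.21 with those libraries, and -0.07 to 0.22 on leaving out a replicate, and Haus6 was -0.08 with total counts. The causes were not tested.

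Haus8 was picked for its changes in these same counts, so a sign kept in other settings is no separate support. Its log2 fold change kept its sign in every setting run. On leaving out a replicate it was -2.04 to -1.37 in Padi6 KO and 3.14 to 3.97 in Tle6 KO. For the difference it ran from 4.86 to 5.77, and for the hets from -2.07 to -1.15. Its log2 ratio to the other subunits was -2.85 in Padi6 KO and 1.91 in Tle6 KO with the longest transcript as length. With the mean of the log2 values of the other subunits in place of their median, it was -3.26 in Tle6 het and 0.58 in Tle6 KO.

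Samples that shared a replicate number did not deviate together beyond the limit used, with correlations of deviations of 0.11, 0.06 and 0.07 in the Padi6 line and 0.05 and 0.10 in the Tle6 line, so the numbers were not taken to pair samples. The replicate block gave 859 genes in Padi6 KO, 57 in Tle6 KO and 400 in the difference, and Haus7 passed in Padi6 KO at 0.52. No paired analysis was possible for the hets, whose numbers belong to different lines. Haus8 had 202 reads or more per replicate, and the Tle6 line has 2 het replicates only.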
